A study of Mus musculus with 22 samples.

Results

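The genes described here are the subunits of the transcription factor NF-kappaB and the inhibitors that its own activity induces, read in mouse spinal cord after a short interruption of aortic blood flow. The list was set by gene name, with earlier results of these data known. It holds 10 genes, of which Nfkb1, Nfkb2, Rel and Relb encode subunits and Nfkbia, Nfkbie, Nfkbiz and Bcl3 inhibitors. Tnfaip3 and Birc3 are ubiquitin-pathway genes. Each gene was read from the probe set that carries its symbol alone and has the highest mean over all arrays, and this found 9 of the 10 among 18193 measured genes. Nfkb1, which encodes p105 and its product p50, has no probe set under its symbol in the annotation used and was not analysed here.

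NF-kappaB dimers of the Rel family are held in the cytoplasm by IkappaB proteins. Signals from tumour necrosis factor, interleukin-1 and Toll-like receptors activate a kinase complex that marks IkappaB for destruction, and the freed dimers enter the nucleus and bind kappaB sequences. Their target genes include subunits and inhibitors of the pathway itself, which form feedback loops. In the injured spinal cord this pathway is known from microglia, astrocytes, endothelium and entering leukocytes.

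The animals were wild-type C57Bl/6 mice from Jackson Laboratories, aged 10 to 12 weeks. Their aorta was cross-clamped for 7.5 min, or they had a sham operation. RNA from cord below T6 (caudal) and above T6 (rostral) was hybridised to separate Affymetrix Mouse430_2 arrays. The groups were 4 caudal arrays at 48 h after clamping, 4 rostral arrays at 48 h, 3 caudal and 3 rostral arrays at 24 h, 3 caudal sham arrays and 4 rostral sham arrays. The labels give no time for the sham operation and do not say whether the arrays of a group come from separate animals, so p-values measure only the spread between these samples. Values are log2 RMA signals as the authors deposited them, and the number of arrays limits their precision. Levels of different genes are not compared, since probe sets differ in brightness.

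Of the 7 member genes with an entry in the RefSeq promoter table (GRCm38.p6), 5 had at least 1 match to the kappaB consensus in the 250 bases before an annotated start. Of all 27025 genes in that table, 8.23% had a match, and of all 32851 promoters 7.25%. Both strands were searched and overlapping matches were counted. The windows of the 5 genes are shown because these letters are the class of sequence that the pathway's own dimers bind. Each line gives the 150 bases before the start, 5′ to 3′ on the gene's strand, with the matches in capitals.
Nfkb2: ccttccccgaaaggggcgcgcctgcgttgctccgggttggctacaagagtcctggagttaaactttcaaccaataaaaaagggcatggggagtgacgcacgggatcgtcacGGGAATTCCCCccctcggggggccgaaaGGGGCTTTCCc
Rel: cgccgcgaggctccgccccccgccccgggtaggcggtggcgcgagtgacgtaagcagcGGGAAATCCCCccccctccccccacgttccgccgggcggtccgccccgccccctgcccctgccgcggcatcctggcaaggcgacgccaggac
Nfkbia: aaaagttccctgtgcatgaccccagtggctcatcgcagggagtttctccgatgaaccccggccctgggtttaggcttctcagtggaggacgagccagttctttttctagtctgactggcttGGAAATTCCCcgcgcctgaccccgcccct
Nfkbie: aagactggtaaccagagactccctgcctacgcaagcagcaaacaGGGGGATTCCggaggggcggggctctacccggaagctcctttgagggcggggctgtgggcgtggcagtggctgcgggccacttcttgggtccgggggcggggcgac
Tnfaip3: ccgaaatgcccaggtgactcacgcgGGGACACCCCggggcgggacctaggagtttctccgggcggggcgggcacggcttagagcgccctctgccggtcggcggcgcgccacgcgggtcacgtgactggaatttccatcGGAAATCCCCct

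The Nfkb2 window is chr19:46304587-46304736 on the plus strand, and its capitals mark 2 stretches, the nearer one ending at position -2 from the start. The Rel window is chr11:23770970-23771119 on the minus strand, with overlapping matches between positions -92 and -82. The Nfkbia window is chr12:55492648-55492797 on the minus strand, with 1 match at positions -29 to -20. The Nfkbie window is chr17:45555550-45555699 on the plus strand, with 1 match at positions -106 to -97. The Tnfaip3 window is chr10:19015411-19015560 on the minus strand, and its 2 stretches start at positions -125 and -12. Nfkb2 has 2 further starts in the table, with 1 match each farther upstream, and a second start of Tnfaip3 has none. Bcl3 and Birc3 had no match, which says only that these letters are not in this window. A match is a description of the sequence and not a bound site.

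Markers of cord tissue were present throughout: the mean log2 signal of the oligodendrocyte, neuron and astrocyte lists was at least 11.30 on every grouped array. Some arrays stood apart. Both arrays numbered 283 went against their region labels, since Hoxc10, a gene of the lower cord, read 5.67 on the array labelled caudal 24 h and 10.14 on the array labelled rostral 24 h. The other caudal 24 h arrays read 10.19 and 10.32 for it, and the other rostral 24 h arrays 5.75 and 5.38. Hoxd10 (4.37 labelled caudal, 9.41 labelled rostral) and Hoxc5 (8.22 and 6.07) likewise read on both arrays as in the other region. Caudal 48 h array 271 had the narrowest spread of log2 values (SD 2.05, against 2.21 to 2.27 on the others) and the lowest median correlation with the other arrays (0.912). The 5′ minus 3′ signal of the Gapdh control was lowest on caudal 48 h array 274 (-1.05) and caudal sham array 280 (-0.68). Results are therefore also given without these arrays where they change.

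Below T6, 8 of the 9 measured genes were higher at 48 h after clamping than after sham surgery, and none was lower. The rises ran up to 7.39-fold for Tnfaip3, 4.84-fold for Nfkbiz, 3.85-fold for Birc3 and 3.80-fold for Nfkbie. Bcl3 rose 3.47-fold, and Rel, Relb and Nfkbia rose 2.06-fold, 2.10-fold and 2.11-fold. The ninth gene, Nfkb2, did not pass. Of all genes tested, 5.52% were called higher and 7.02% lower in this comparison (limma, Benjamini-Hochberg adjusted p under 0.05), and the median log2 change was 1.80 over the 9 genes against 0.00 over all genes. The same 8 genes read higher on every caudal 48 h array than on every caudal sham array, which held for 8.9% of all genes. Because the list was chosen with earlier results of these data known, its distance from these shares is not a test. In tissue RNA, more cells of a type and more RNA per cell cannot be told apart.

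**Figure D1:**
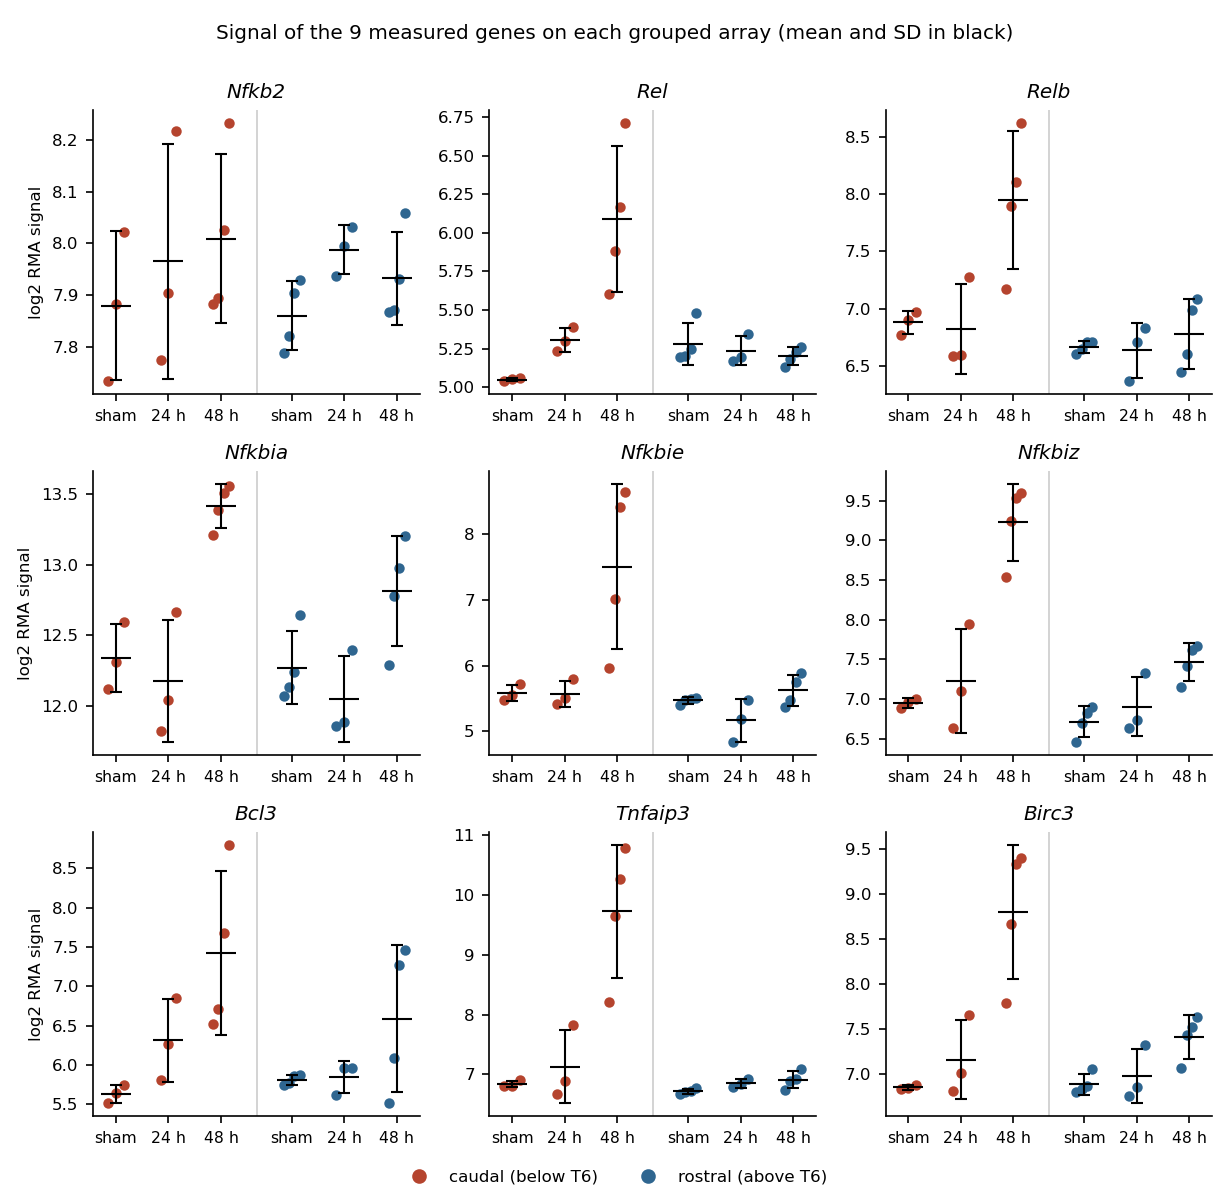
Each point is the log2 RMA signal of 1 array, by region and by time after clamping, with the group mean and SD in black and an own vertical scale for each gene. For 8 genes all caudal 48 h points lie above all caudal sham points, while the caudal 48 h points of Nfkb2 overlap the sham points.

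Among the subunits, Rel encodes c-Rel, a subunit best known from lymphoid and myeloid cells. Its log2 signal was 6.71, 6.17, 5.88 and 5.60 on caudal 48 h arrays 271 to 274, against 5.04, 5.06 and 5.05 on the caudal sham arrays. The 48 h arrays spread widely and the sham arrays hardly at all, with no overlap. On the log2 scale Rel rose by 1.04 ± 0.17 (SE, adjusted p = 0.000546). Rel lay under the lower quartile of every array's signals in the caudal sham group, where small differences are hard to read on this platform.

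Relb encodes RelB, the usual partner of p52 in the slower, noncanonical branch of the pathway. It read 8.10, 8.62, 7.90 and 7.17 on the caudal 48 h arrays, against 6.90, 6.77 and 6.97 on the caudal sham arrays. Array 274 was nearest to sham and still above it. Relb rose by 1.07 ± 0.25 on the log2 scale (SE, adjusted p = 0.00955).

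Nfkb2 encodes p100, which acts as an inhibitor until it is processed to p52. The probe set used read 8.03, 8.23, 7.88 and 7.90 on the caudal 48 h arrays, against 7.73, 7.88 and 8.02 on the caudal sham arrays. The groups overlapped, and the log2 change of 0.13 ± 0.11 (SE) did not pass (adjusted p = 0.387, 95% interval -0.10 to 0.36). The gene's other probe set gave another picture, with 7.26, 8.50, 7.55 and 6.99 at 48 h, against 6.66, 6.61 and 6.81 after sham. Here all caudal 48 h arrays were above all caudal sham arrays, and the log2 change was 0.88 ± 0.24 (SE, adjusted p = 0.0266 over 34945 probe sets). With the mean of both probe sets, Nfkb2 passed as well (0.51, adjusted p = 0.0325), which makes 9 of 9. The 2 probe sets disagree, so whether Nfkb2 rose depends on which is read.

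Nfkbia and Nfkbie encode IkappaB-alpha and IkappaB-epsilon, which hold dimers in the cytoplasm and are resynthesised after activation. Nfkbia read 13.39, 13.51, 13.56 and 13.21 on the caudal 48 h arrays, against 12.12, 12.31 and 12.59 on the caudal sham arrays. The 48 h arrays of this gene lay close together, unlike those of the other genes that rose. The log2 change was 1.08 ± 0.22 (SE, adjusted p = 0.00407).

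Nfkbie read 8.41, 8.65, 7.01 and 5.96 on the caudal 48 h arrays, against 5.55, 5.72 and 5.48 on the caudal sham arrays. Arrays 271 and 272 were far above sham, and array 274 was only just above the highest sham array. The log2 change was 1.92 ± 0.41 (SE, adjusted p = 0.00557).

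Nfkbiz and Bcl3 encode IkappaB-zeta and Bcl-3, which act in the nucleus on promoters occupied by p50 or p52. In mouse macrophages, IkappaB-zeta is needed for full induction of Il6. Nfkbiz read 9.24, 9.59, 9.54 and 8.53 on the caudal 48 h arrays, against 6.96, 6.88 and 7.00 on the caudal sham arrays. The lowest 48 h array was more than 1 log2 unit above the highest sham array. Its rise was 2.28 ± 0.27 on the log2 scale (SE, adjusted p = 4.14e-05), the smallest p among the 9 genes.

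Bcl3, like Nfkbie and Tnfaip3, spread over more than 2 log2 units at 48 h. It read 6.71, 8.80, 7.68 and 6.52 on the caudal 48 h arrays, against 5.64, 5.51 and 5.75 on the caudal sham arrays. Array 272 stood highest, and arrays 271 and 274 were nearest to sham. The log2 change was 1.80 ± 0.46 (SE, adjusted p = 0.0169), and without caudal sham array 278 or 279 Bcl3 did not pass (adjusted p up to 0.0644).

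Tnfaip3 encodes A20, a ubiquitin-editing enzyme that limits signalling from tumour necrosis factor and Toll-like receptors. It read 10.78, 10.27, 9.65 and 8.21 on the caudal 48 h arrays, against 6.80, 6.90 and 6.81 on the caudal sham arrays. This was the largest rise of the 9 genes and ranked 71 of 18193 genes by log2 change. The change was 2.89 ± 0.38 on the log2 scale (SE, adjusted p = 0.000107, 95% interval 2.09 to 3.69).

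Birc3 encodes cIAP2, a ubiquitin ligase that promotes canonical signalling and restrains the noncanonical branch. It read 9.34, 9.40, 8.67 and 7.79 on the caudal 48 h arrays, against 6.88, 6.84 and 6.85 on the caudal sham arrays. The sham arrays were nearly alike, and array 274 was again the lowest at 48 h. Birc3 rose by 1.95 ± 0.28 on the log2 scale (SE, adjusted p = 0.000236).

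The 9 genes have 19 probe sets, and each of the 10 not used for the tests was higher at 48 h and passed, with log2 changes from 0.69 to 2.13. Nfkbia's other 4 rose by 1.05 to 1.62, against 1.08 for the one used. The second probe sets of Tnfaip3 (1.03) and Birc3 (0.69) gave smaller log2 changes than the brighter ones used. Fitted on the arrays of both groups alone, with fewer arrays behind the spread, the log2 changes were the same but only Nfkbia and Nfkbiz passed. Tnfaip3 (adjusted p = 0.0557) and Birc3 (0.0638) missed the threshold. The SE itself was larger there, 0.53 against 0.38 for Tnfaip3 and 0.59 against 0.41 for Nfkbie. For Tnfaip3 the SD was 1.11 on the caudal 48 h arrays and 0.06 on the caudal sham arrays. The fit reported shares 1 spread over all 6 groups, so its SE can be too small for genes that vary most at caudal 48 h. Without caudal arrays 271, 274 and 280 the same 8 genes passed.

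**Figure D2:**
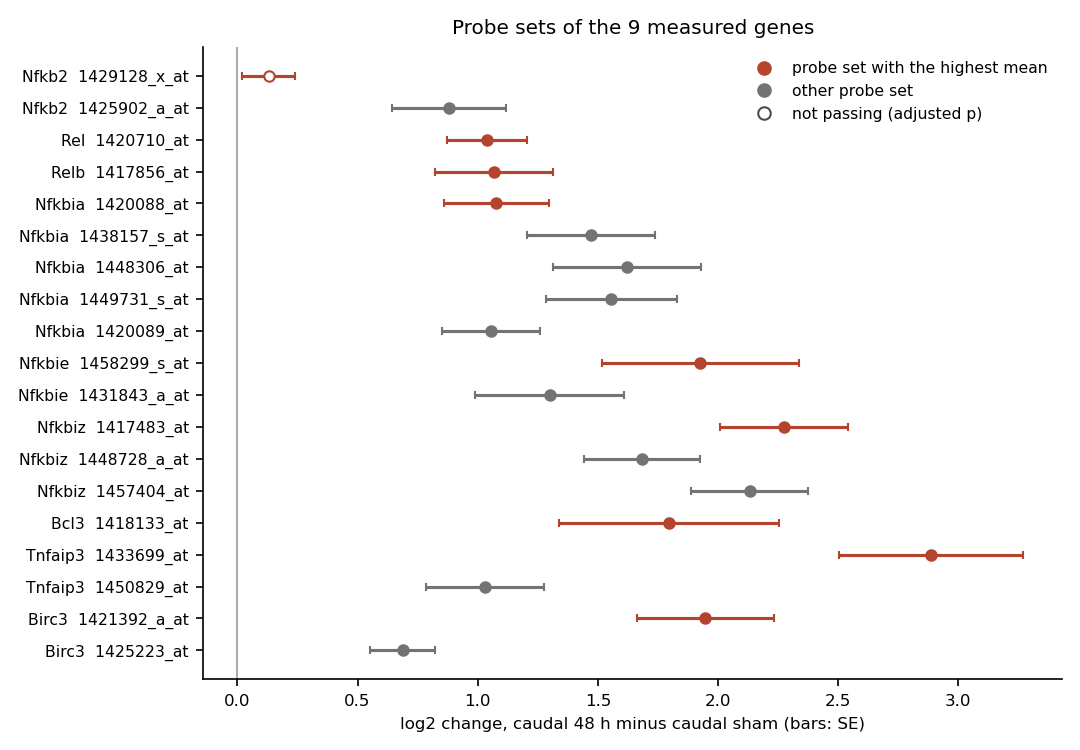
Log2 change with its SE, caudal 48 h minus caudal sham, for each of the 19 probe sets of the 9 genes, with the brightest probe set of each gene first and in red. All changes but that of the brighter Nfkb2 probe set pass, and the 2 Nfkb2 probe sets differ, at 0.13 and 0.88.

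The caudal 48 h arrays fell in a similar order for most of the genes. Array 274 was the lowest in 8 of the 9 genes, Nfkb2 being the exception, and array 272 was the highest in 6. The median log2 change of the 9 genes from the caudal sham mean was 1.66 on array 271, 2.54 on array 272, 1.43 on array 273 and 0.87 on array 274. The median over all genes lay between -0.07 and 0.12 on these arrays. Array 274 was also the one with the lowest Gapdh 5′ minus 3′ signal, and its part in the order was not tested.

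Cell type markers moved beside these genes below T6. Of 8 measured monocyte and macrophage markers, 6 were higher at 48 h than after sham, among them Cd14 (log2 change 4.54), Fcgr1 (2.79), Cybb (2.50) and Ptprc (1.52). The mean log2 signal of that list was 9.96, 9.52, 9.01 and 8.47 on caudal 48 h arrays 271 to 274, against 7.17 to 7.32 on the caudal sham arrays. Array 274 was thus the lowest of the 4 in this list too.

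Of 8 neutrophil markers only Mmp8 rose, and the list's mean signal overlapped between caudal 48 h (8.09 to 9.94) and caudal sham arrays (7.65 to 9.22). None of 9 lymphocyte markers passed, and Cd3g, Cd2 and Cd79b lay under the lower quartile on the caudal 48 h arrays. Of 6 microglia markers Fcrls rose and Sall1 fell, with list means of 9.03 to 9.32 at 48 h against 8.97 to 9.12 after sham. Among resident cells, 1 of 6 astrocyte markers rose (Gfap), 0 of 5 oligodendrocyte markers passed, 2 of 6 neuron markers fell (Map2 and Nefl) and 4 of 7 endothelial markers fell. How much these cell types contribute to the members' rise was not tested.

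**Figure D3:**
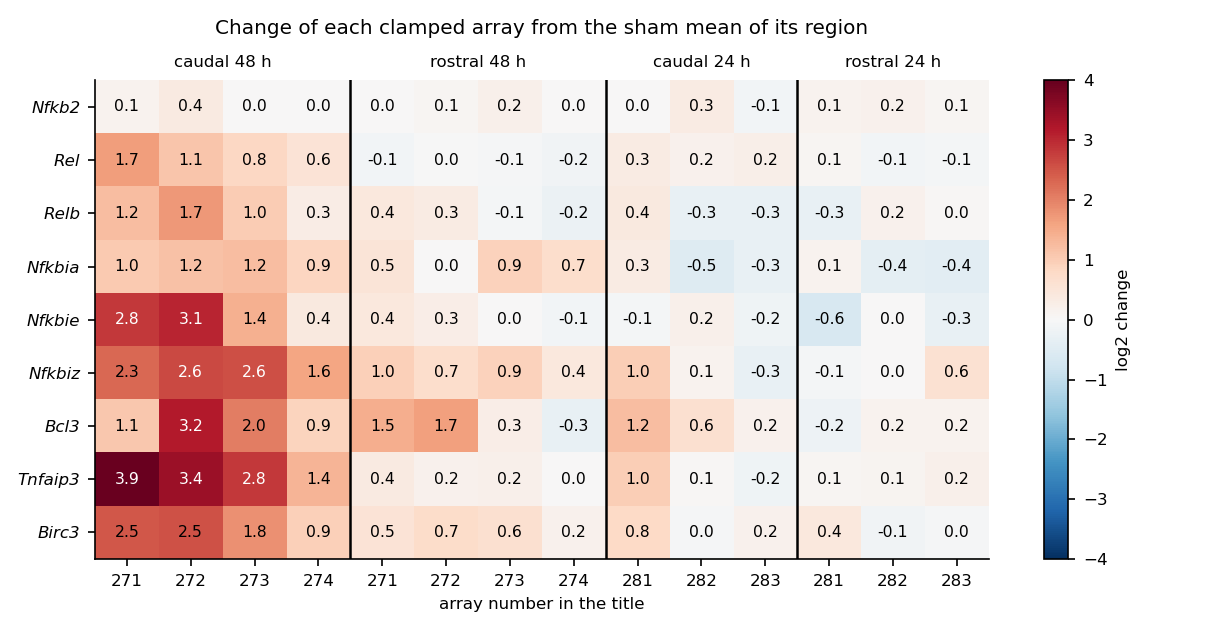
Each cell gives the log2 change of a gene on 1 clamped array from the sham mean of the array's own region, with red for higher and blue for lower. The strong red lies in the caudal 48 h block, with array 274 the palest in every row except Nfkb2, and the rostral and 24 h blocks hold mostly small values of both signs.

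Above T6, none of the 9 genes passed at 48 h (smallest adjusted p = 0.279), where 0.61% of all genes were called and 0.467% were called higher. The median log2 change was 0.19 over the 9 genes and -0.02 over all genes. At an unadjusted p under 0.05 there were 2, Nfkbiz and Nfkbia, where 7.08% of all genes reached it in either direction. Nfkbiz read 7.67, 7.41, 7.62 and 7.15 on rostral 48 h arrays 271 to 274, against 6.45, 6.89, 6.69 and 6.82 on the rostral sham arrays. These groups did not overlap, and the log2 change was 0.75 ± 0.25 (SE, adjusted p = 0.279).

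Birc3 was the other gene whose rostral groups did not overlap, which held for 4.63% of all genes. It read 7.44, 7.64, 7.52 and 7.07 on the rostral 48 h arrays, against 7.06, 6.83, 6.80 and 6.87 on the rostral sham arrays. The gap between the nearest arrays was about 0.01 log2 units. The log2 change was 0.53 ± 0.26 (SE, adjusted p = 0.762).

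Nfkbia read 12.78, 12.29, 13.20 and 12.98 on the rostral 48 h arrays, against 12.07, 12.13, 12.24 and 12.64 on the rostral sham arrays. The groups overlapped through array 272 (log2 change 0.54 ± 0.20, SE, adjusted p = 0.408). Bcl3 was split, with 7.27, 7.47, 6.09 and 5.52 on the rostral 48 h arrays, against 5.74 to 5.88 on the rostral sham arrays. Arrays 271 and 272 were well above sham and array 274 was below it, and the log2 change was 0.78 ± 0.42 (SE, adjusted p = 0.838).

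Tnfaip3, the gene with the largest caudal rise, read 7.08, 6.90, 6.93 and 6.73 on the rostral 48 h arrays, against 6.77, 6.72, 6.70 and 6.68 on the rostral sham arrays. Its log2 change was 0.19, with a 95% interval of -0.55 to 0.93. The same intervals were -0.40 to 0.24 for Rel, -0.36 to 0.59 for Relb, -0.14 to 0.28 for Nfkb2 and -0.64 to 0.94 for Nfkbie. All of them use the spread shared over the 6 groups. For Tnfaip3 the SD was 0.14 on the rostral 48 h arrays and 0.04 on the rostral sham arrays, against 1.11 on the caudal 48 h arrays. Its rostral interval is therefore wide for the spread of the rostral arrays themselves. Cardiac muscle markers moved with the rostral 48 h group, with 7 of 8 higher and a list mean of 9.41 to 10.99 at 48 h against 5.65 to 5.74 after sham. On the caudal arrays 5 of these 8 were higher and 1 lower, with 6.58 to 8.08 at 48 h against 5.60 to 5.75 after sham. At 24 h the list means were 5.69 to 5.82 in caudal and 5.71 to 6.02 in rostral cord. The part of these cardiac markers in the members' values was not tested.

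With array weights 3 genes passed above T6 (Nfkbiz, Bcl3 and Birc3), and in a fit of the rostral 48 h and sham arrays alone 2 did (Nfkbiz and Birc3). The 0.467% of all genes called higher belongs to the fit reported and is not the share under these fits. Without caudal arrays 271, 274 and 280 and both arrays numbered 283, Nfkbiz alone passed.

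At 24 h none of the 9 genes passed in either region, set against the same sham arrays as at 48 h. Below T6 1 gene of all, or 0.0055%, was called higher, and no member reached an unadjusted p under 0.05, which 2.9% of all genes did. The largest log2 change was that of Bcl3, which read 6.86, 6.27 and 5.81 on caudal 24 h arrays 281 to 283, against 5.64, 5.51 and 5.75 on the caudal sham arrays. The groups did not overlap, by a narrow margin at array 283, and the log2 change was 0.68 ± 0.49 (SE, adjusted p = 1).

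The 3 caudal 24 h arrays did not lie alike. Array 281 was the highest for 7 of the 9 genes, with 7.94 for Nfkbiz against 6.88 to 7.00 after sham and 7.83 for Tnfaip3 against 6.80 to 6.90. Its median log2 change from sham was 0.40, with 0.15 on array 282 and -0.16 on array 283. Array 283 is the one on which Hoxc10 (5.67), Hoxd10 and Hoxc5 all read as in rostral cord, so its place among the caudal arrays is uncertain. On it Bcl3 (5.81) and Rel (5.30) lay within the ranges of the rostral sham arrays (5.74 to 5.88 and 5.20 to 5.48). The array labelled rostral 283 read 7.33 for Nfkbiz, above the caudal sham arrays. The monocyte and macrophage list was highest on array 281 as well (8.10, with 7.48 and 7.40 on the others, against 7.17 to 7.32 after sham). Rel was the other gene whose caudal 24 h and sham arrays did not overlap (5.39, 5.23 and 5.30 at 24 h), where 8.65% of all genes were higher without overlap.

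Above T6 at 24 h no gene of all was called (0%), and 0 of the 9 and 0.781% of all genes reached an unadjusted p under 0.05. The members' log2 changes ran from -0.31 for Nfkbie to 0.19 for Nfkbiz, with a median of 0.04. Nfkbiz read 6.64, 6.74 and 7.33 on rostral 24 h arrays 281 to 283, against 6.45 to 6.89 on the rostral sham arrays. Its highest value is thus on array 283, whose Hoxc10 signal (10.14) went against its rostral label. The widest 95% interval, that of Nfkbie, reached from -1.16 to 0.55. Without both arrays numbered 283, the count at 24 h was again 0 in both regions.

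Between the clamped times below T6, 7 of the 9 genes were higher at 48 h than at 24 h, all but Nfkb2 and Bcl3, where 4.24% of all genes were called higher. Tnfaip3 differed most, with means of 9.73 ± 1.11 at 48 h (SD, n = 4) and 7.13 ± 0.61 at 24 h (SD, n = 3), so that 48 h lay 2.60 ± 0.38 higher on the log2 scale (SE, adjusted p = 0.000795). Nfkbiz followed with 9.22 ± 0.49 at 48 h (SD, n = 4) and 7.23 ± 0.66 at 24 h (SD, n = 3), with 48 h higher by 2.00 (adjusted p = 0.000381). Nfkbia differed by 1.24 (adjusted p = 0.00241), Birc3 by 1.64 (0.00229) and Nfkbie by 1.94 (0.00785). The second probe sets of Tnfaip3 (0.73, adjusted p = 0.0868), Nfkbie (0.99, 0.0697) and Birc3 (0.45, 0.0599) gave smaller values and did not pass.

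The 48 h and 24 h arrays did not overlap for 6 of these 7, against 5.91% of all genes. Relb passed (1.13, adjusted p = 0.0098) although its arrays overlapped, since array 274 at 48 h (7.17) lay below array 281 at 24 h (7.28). Bcl3 missed at 1.11 ± 0.46 (SE, adjusted p = 0.141) and passed without caudal 48 h array 274 (1.42, adjusted p = 0.0377). It also passed without caudal arrays 271, 274 and 280 (1.92, 0.00655), without these and both arrays numbered 283 (1.67, 0.0382) and with array weights (1.54, 0.00259). Without caudal 48 h array 272 alone it was 0.66, and it did not pass. Without both arrays numbered 283, 4 genes passed (Nfkbia, Nfkbiz, Tnfaip3 and Birc3), and Rel (0.78, adjusted p = 0.0724), Relb (1.01, 0.108) and Nfkbie (1.86, 0.0801) did not. Leaving out caudal 24 h array 283 alone gave the same 4, leaving out caudal 24 h array 282 ended the calls of Rel and Relb, and in a fit of the caudal 48 h and 24 h arrays alone none of the 9 and no gene of all passed. Above T6 none of the 9 passed between 48 h and 24 h, where 0.363% of all genes were called and 0.346% were called higher. Nfkbia (0.76, adjusted p = 0.262) and Nfkbiz (0.56, adjusted p = 0.937) reached an unadjusted p under 0.05 there, as 5.25% of all genes did.

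Within the 48 h arrays, caudal cord was higher than rostral cord for 6 of the 9 genes, where 5.57% of all genes were called higher. Tnfaip3 again differed most, with means of 9.73 ± 1.11 in caudal and 6.91 ± 0.14 in rostral cord (SD, n = 4 each), a log2 difference of 2.82 ± 0.35 (SE, adjusted p = 9.23e-05). Nfkbie (1.89, adjusted p = 0.00399), Nfkbiz (1.76, 0.000278), Birc3 (1.39, 0.00266), Relb (1.17, 0.00334) and Rel (0.89, 0.00139) passed too. Nfkbia missed at 0.61 ± 0.20 (SE, adjusted p = 0.0639) although all its caudal arrays were above its rostral ones. It passed without caudal 48 h array 274 and without caudal 24 h array 281, which enters the fit through the shared spread. Nfkbia also passed with the mean of its probe sets (0.94, adjusted p = 0.0129) and with array weights (0.77, 0.0141). The same held with array 276 counted as rostral 48 h (0.83, 0.0277). With the shared array number as a random block (0.0341) or a fixed block (0.0237) it passed too.

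The other 4 probe sets of Nfkbia passed this comparison, with log2 differences of 0.85 to 1.17. The second Nfkb2 probe set passed as well (0.82, adjusted p = 0.0288). Bcl3 missed at 0.84 ± 0.42 (SE, adjusted p = 0.202), its caudal and rostral arrays overlapping. It passed without caudal arrays 271, 274 and 280 (1.65, adjusted p = 0.0135) and with array weights (1.01, 0.0461), and with single arrays left out its value ran from 0.38 (without caudal 48 h array 272) to 1.14 (without caudal 48 h array 274) and never passed. In a fit of the 48 h arrays alone, only Nfkbiz and Tnfaip3 of the 9 genes passed.

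Cell type markers also differed between the regions at 48 h. Of 8 monocyte and macrophage markers, 5 were higher in caudal cord, with list means of 8.47 to 9.96 on the caudal arrays against 7.39 to 7.97 on the rostral arrays. Of 8 neutrophil markers, 5 were higher, with 8.09 to 9.94 on the caudal against 6.59 to 6.96 on the rostral arrays. After sham the neutrophil list read 7.65 to 9.22 on the caudal and 7.36 to 7.76 on the rostral arrays. In the regional difference of the clamp effect, 0 of these 8 neutrophil markers passed. All 8 cardiac muscle markers were lower in caudal cord. The part of these cells in the regional difference of the members was not tested.

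After sham surgery none of the 9 genes passed between caudal and rostral cord, where 0.335% of all genes were called and 0.33% were called higher in caudal cord. None reached an unadjusted p under 0.05, as 5.51% of all genes did. The log2 differences ran from -0.23 for Rel to 0.23 for Nfkbiz. Rel was lower on every caudal than on every rostral sham array, as 8.67% of all genes were, and it passed with array weights. Relb and Tnfaip3 were higher on every caudal sham array, as 12.1% of all genes were.

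The change with clamping at 48 h was itself compared between the regions, as the caudal change minus the rostral change. It differed for 2 of the 9 genes, where 0.407% of all genes were called higher. For Tnfaip3 the caudal change of 2.89 and the rostral change of 0.19 differed by 2.69 ± 0.52 (SE, adjusted p = 0.0188). Its other probe set gave a smaller difference of 1.04 that did not pass (adjusted p = 0.292 over 34945 probe sets, where the one used had 0.0311). For Rel the caudal change of 1.04 and the rostral change of -0.08 differed by 1.12 ± 0.23 (SE, adjusted p = 0.0248). Nfkbiz came next at 1.53 ± 0.36 (SE, adjusted p = 0.0641), then Birc3 at 1.42 ± 0.39 (SE, adjusted p = 0.127). At an unadjusted p under 0.05 there were 6 of the 9, against 12.2% of all genes. For the other 5 genes the difference ran from 0.06 to 1.77 and did not pass, and for Bcl3 its 95% interval was -0.29 to 2.32.

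Which genes passed this comparison changed with single arrays left out, while the differences kept their direction. For Tnfaip3 the difference then ran from 2.34 to 3.2 (adjusted p up to 0.0681). For Rel it ran from 0.91 to 1.28 (adjusted p up to 0.084). Leaving out any of the caudal sham arrays 278, 279 or 280 left 0 genes, and leaving out rostral 48 h array 273 or 274, or rostral sham array 278 or 280, left Tnfaip3 alone. Without caudal 48 h array 274, 6 genes passed (Rel, Relb, Nfkbie, Nfkbiz, Tnfaip3 and Birc3). The same 6 passed without caudal arrays 271, 274 and 280, and with array weights. The 0.407% of all genes called higher belongs to the fit reported and is not the share under these fits. In a fit of the 4 compared groups alone, Tnfaip3 and Nfkbiz (adjusted p = 0.0357) passed and Rel did not (0.0942).

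By the order of its 6 group means, each of the 9 genes was highest in caudal cord at 48 h. Nfkb2 was so only narrowly, with 8.01 ± 0.16 (SD, n = 4) against 7.99 in rostral cord at 24 h. No share of all genes is given for this order. The next group was rostral cord at 48 h for 5 of them, Nfkbia, Nfkbie, Nfkbiz, Bcl3 and Birc3. Against it, caudal cord at 48 h passed as higher for Nfkbie, Nfkbiz and Birc3. Nfkbia missed the threshold there although its arrays did not overlap. For Tnfaip3 and Rel the next was caudal cord at 24 h, with 7.13 ± 0.61 and 5.31 ± 0.08 (SD, n = 3 each), and both differed from 48 h. For Relb the caudal sham mean came next at 6.88 ± 0.10 (SD, n = 3). For Nfkb2 all 6 means lay between 7.86 and 8.01.

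The rest of the pathway was read from lists ordered by role, which were also chosen with earlier results of these data known. Of 12 listed genes for the remaining subunit, further inhibitors and partners of A20, 11 were measured, 3 rose below T6 at 48 h and none fell. They were Nfkbid (log2 change 0.74, adjusted p = 0.00256), a nuclear IkappaB, Nfkbib (0.48, 0.0257), the cytoplasmic IkappaB-beta, and Tnip2 (0.58, 0.0437), which binds A20. Rela, the main activating subunit p65, had a mean of 9.98 at 48 h and 9.65 after sham, a log2 change of 0.33 ± 0.20 (SE, adjusted p = 0.235). Cyld, a deubiquitinase that also restrains the pathway, gave -0.45 ± 0.23 (SE, adjusted p = 0.172).

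Of 9 measured ligands 3 rose, Il1b (log2 change 4.27 ± 0.61, adjusted p = 0.000203), Il1a (3.21 ± 0.33, 1.12e-05) and Tnf (1.66 ± 0.27, 0.00063), which start canonical signalling. Tnfsf11, the ligand RANKL, gave 0.27 (adjusted p = 0.15). Of 12 receptors 10 rose, among them Tlr2 (3.39), Tlr3 (1.24), Tnfrsf1b (1.24) and Cd40 (0.77). The median log2 change was 0.27 for the ligands and 0.99 for the receptors.

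Of 20 measured kinases and adaptors 4 rose: Myd88 (1.92), the adaptor of Toll-like and interleukin-1 receptors, Irak3 (1.11), which restrains it, Irak2 (0.73) and Bcl10 (0.70). The kinase genes themselves did not pass, with log2 changes of -0.52 ± 0.30 for Ikbkb, -0.30 ± 0.19 for the regulatory subunit Ikbkg and 0.24 ± 0.10 for Map3k14, which encodes NIK (SE, adjusted p = 0.217, 0.263 and 0.114). Chuk was not measured. Ripk1, Traf3 and Irak4 were not measured either, of 24 genes listed. The list's median log2 change was -0.09, against 0.00 over all genes.

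Of 38 target genes 29 rose and none fell, with a median log2 change of 1.73. The 4 with the smallest p were Ccl4 (3.99), Il6 (7.14), Cxcl2 (5.47) and Cxcl10 (6.50), all secreted attractants or cytokines. Above T6 at 48 h, 1 of these 38 target genes passed, Lcn2 (3.06, adjusted p = 0.027), and none in the other 4 lists. The regional difference in the clamp effect passed for Il1a (3.08), Il1b (4.13), Tnf (1.72), Tlr2 (2.96), Tlr3 (1.23), Ccl4 (3.54), Cxcl2 (4.99) and Il6 (5.77), but not for Cxcl10 (4.69, adjusted p = 0.0614).

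**Figure D4:**
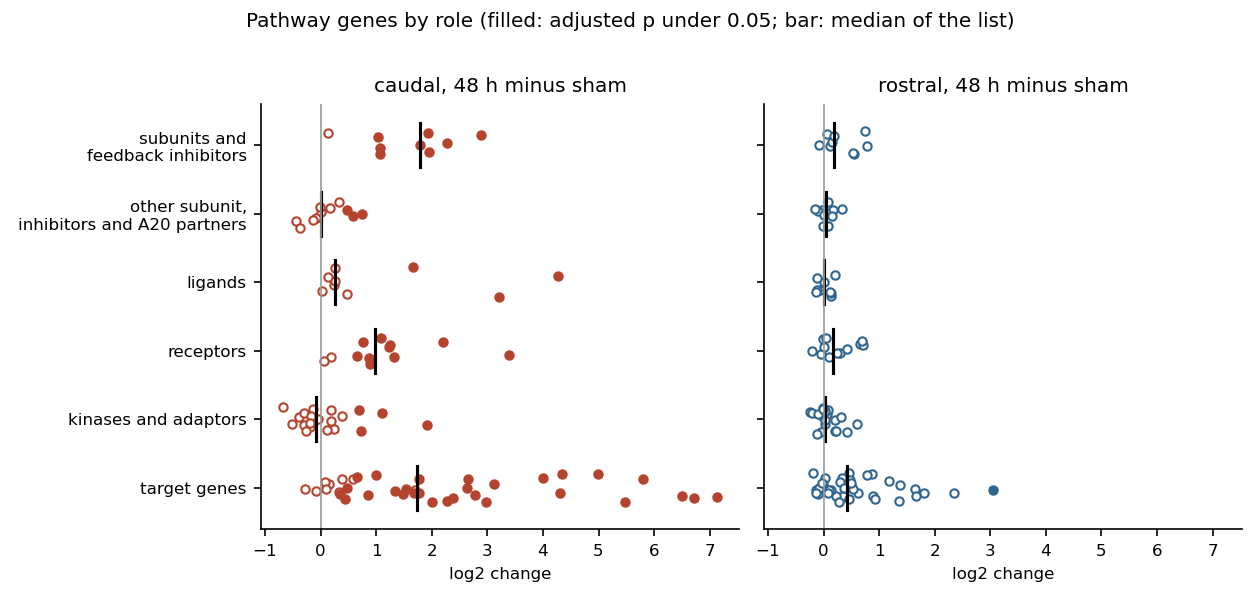
Each point is the log2 change of 1 gene from sham at 48 h, by role in the pathway and for caudal and rostral cord, filled where the adjusted p is under 0.05, with the list's median as a bar. In caudal cord the medians are 1.80 for the subunits and feedback inhibitors and 1.73 for the target genes, against -0.09 for the kinases and adaptors. In rostral cord the only filled point is Lcn2.

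The genes whose changes lay nearest to those of each member were found over the 14 grouped clamped arrays, for the 8 members that rose below T6, by the root mean square of the difference in log2 change from sham. For Tnfaip3 they were Il1a (0.287) and Csf3 (0.364), where the median over all genes was 1.66. For Nfkbiz they were Csrnp1 (0.209) and Trib1 (0.299), and for Nfkbia Dusp1 (0.215) and Errfi1 (0.249). For Rel they were Pcna (0.135) and Slfn5 (0.140), for Relb Dusp5 (0.206) and Socs2 (0.210), and for Birc3 Ier2 (0.252) and Trim21 (0.265). For Nfkbie they were Upp1 (0.308) and Fpr2 (0.311), and for Bcl3 Rnf213 (0.302) and Lgals9 (0.308). None of these 8 had another of them nearer than its nearest 2 genes. The closest pairs of members were Rel and Relb at 0.360 and Nfkbiz and Birc3 at 0.411. All these distances use the sham means and the same arrays, so they describe these libraries only.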

How the data were processed

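The deposited values are log2 signals of 45101 probe sets on 22 arrays, made by the authors with RMA, as named in the submitters' processing notes without a version. There are 64 control probe sets, and in the platform annotation 34945 carry 1 symbol, 932 carry more and 9160 have none. The single-symbol probe set with the highest mean was taken for each gene, which gave 18193 genes, and the rule for named genes took all members, the pathway and marker genes of smallest p, and the 2 genes nearest to each member. The members and lists were chosen with earlier results of these data known.

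Group means of the 21 arrays in 6 groups were estimated with limma 3.58.1 (R 4.3.3, statmod 1.5.0; lmFit and eBayes, 18.7 degrees of freedom), with two-sided tests and p-values adjusted over all genes of a comparison (Benjamini-Hochberg). The procedure was tested on simulated data. Rostral array 276 entered no group, because the labels give both 24 h and 48 h for it. Caudal and rostral arrays share title numbers, but the deviations of same-numbered arrays correlated above 0.1 in only 6 of 10 pairs (-0.45 to 0.53), so the numbers were not used as a block. The other pairs were 281 (-0.19), 282 (-0.03) and 283 (-0.45) at 24 h and 280 (0.09) after sham. The 24 h deviations are taken from group means that include the arrays numbered 283, which went against their region labels. Counts with the numbers as a block are given further below. Alternatives changed the probe set rule, normalisation, filter, moderation, array weights, samples fitted, block and arrays left out. Array medians lay between 6.79 and 6.88.

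Promoter matches used the RefSeq promoter table of GRCm38.p6. Marker lists of sensory ganglia and Schwann cells (0 of 5 passing below T6 at 48 h) and of region genes (0 of 4) served as checks.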

Additional observations from a re-analysis of the deposited data

Results flagged for a closer look

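The change with clamping at 48 h differed between caudal and rostral cord, by a test of the difference itself (limma), for 2 of the 9 genes. Of all genes, 0.407% were called higher by it. Tnfaip3 differed by 2.69 on the log2 scale (adjusted p = 0.0188), with all 4 caudal 48 h arrays above every sham array of the region. Rel differed by 1.12 (adjusted p = 0.0248), likewise with 4 of 4 caudal 48 h arrays above sham. Leaving out each of the 21 arrays in turn, Tnfaip3 passed in 18 cases and Rel in 14. In the groups of 4 arrays, no member had an array whose gap to its neighbour passed Dixon's 95% critical value.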

How the results depend on the processing

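The counts of members passing are given here by comparison. Shares of all genes given above belong to the fit reported and not to these alternatives. With genes brighter than the median only, just Nfkb2 and Nfkbia stayed in the test, and 1 passed below T6 at 48 h against sham, 1 between 48 h and 24 h, 0 between the regions at 48 h and 0 in the regional difference of the clamp effect. Array weights gave 3 above T6 at 48 h against sham, 1 above T6 between 48 h and 24 h (Nfkbia), 1 between the sham regions (Rel) and 6 in the regional difference. Fitting the compared groups alone gave 2 below T6 at 48 h against sham, 2 above T6, 0 between caudal 48 h and 24 h and 2 between the regions at 48 h. Leaving out both arrays numbered 283 gave 4 between caudal 48 h and 24 h. Leaving out caudal arrays 271, 274 and 280 gave 6 in the regional difference, and leaving out these and both arrays numbered 283 gave 6 there and 1 above T6 at 48 h against sham. Some of these fits hold fewer genes or arrays, and the fit of the compared groups alone has its own estimate of the spread. Apart from that, the cause was not tested. Of all genes, 140 were called higher below T6 at 48 h in the fit of those groups alone and 2222 with array weights, against 1005 in the fit reported. With single arrays left out, caudal 48 h against sham ran from 7 to 8 members, the regional difference ran from 0 to 6 and caudal 48 h against 24 h from 4 to 8.

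With the title number as a random replicate block (correlation 0.14) the counts were 8 below T6 at 48 h against sham, 7 between caudal 48 h and 24 h, 7 between the regions at 48 h and 3 in the regional difference. As a fixed block, 7 passed between the regions and 3 in the regional difference. The gene gained between the regions at 48 h was Nfkbia (adjusted p = 0.0341 as a random block and 0.0237 as a fixed block), and the 4 pairs of 48 h arrays correlated by 0.25 to 0.53. Of 20 arrays with a partner, 6 correlated best with their own number. Over 37 results for single genes and 1280 alternative values, 1193 kept direction and side of the threshold, 38 no longer passed, 49 newly passed and 0 reversed. Reading every probe set as its own feature, an alternative chosen after seeing the data, changed none of the counts.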

Other observations

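The rostral array 276, whose labels give both 24 h and 48 h, read near the rostral sham arrays for most of the 9 genes. Tnfaip3 was 6.85 on it, against 6.68 to 6.77 on the rostral sham arrays, Birc3 6.90 against 6.80 to 7.06, and Nfkbiz 6.48 against 6.45 to 6.89. Nfkbia was lower on it, at 11.67 against 12.07 to 12.64. Its cardiac muscle list had a mean log2 signal of 10.63, with 9.41 to 10.99 on the rostral 48 h arrays. The rostral 24 h arrays read 5.71 to 6.02 for this list and the rostral sham arrays 5.65 to 5.74. Counted as 24 h or as 48 h, array 276 left 0 members passing above T6 in either case.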
